A study of Mus musculus with 3 samples.

Results

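The keratin genes of thymic epithelium were described in cultured mouse thymus from the counts of unique molecular identifiers (UMIs) of 10 genes chosen by symbol: Krt8, Krt18, Krt5, Krt14, Krt15, Krt17, Krt7, Krt19, Krt10 and Krt4. These were 10 of the 53 Krt genes and of the 32285 genes in the matrix. They were read in cells with at least 1 UMI of Epcam, the epithelial cell adhesion molecule. Of 8392 single cells kept, 2587 met this limit, of which 1449 came from the ORFTOC pool and 1138 from the FTOC pool.

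ORFTOCs (organoid reaggregate fetal thymic organ cultures) combined 3 cell sources. The thymic epithelial cells (TECs) came from E16.5 embryos and had first been expanded as organoids. Thymus cells of E13.5 embryos were added after removal of their EpCAM-positive fraction, and the third source was mouse embryonic fibroblasts. FTOCs were intact E13.5 thymic lobes kept in the same medium. All cells were wild type, and the labels give no treatment. Both pools were taken on culture day 13, and in each pool 2 cultures had been mixed before the hashtag antibody was added, so each pool was 1 sample. No test between pools was possible. The 95% intervals below reflect counting error alone, and the spread between cultures is unknown.

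Keratins are the intermediate filament proteins of epithelia. A filament is built from pairs of 1 type I and 1 type II keratin, so a cell needs a member of each type. Krt8 (type II) and Krt18 (type I) form the filaments of simple epithelia, and Krt5 (type II) pairs with Krt14 (type I) in the basal layer of stratified epithelia. In the thymus, keratin 8 is a usual marker of the cortex and keratins 5 and 14 of the medulla, and cells with both keratins 5 and 8 are a known small population near the border between these zones.

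The genes of the members lie in both keratin clusters of the mouse genome. In the RefSeq annotation of GRCm38.p6, 5 members were on chromosome 15 and 5 on chromosome 11. The chromosome 15 cluster held the type II members Krt7 (chr15:101412403-101427806), Krt5 (chr15:101707069-101712905), Krt4 (chr15:101918535-101924735) and Krt8 (chr15:101996711-102004342). It also held Krt18 (chr15:102028216-102032026), the one type I member outside chromosome 11, which started 23873 bases past the end of Krt8 with 2 other annotated genes wholly between them. The upstream sequences of Krt8, Krt18 and Krt5 are shown because the first 2 rose and fell together across single cells while Krt5 was found in only a part of the cells of each pool. Each is the 250 bases before the annotated start, 5′ to 3′ on the gene's strand, from RefSeq (GRCm38.p6). Krt8 is at chr15:102004343-102004592 (minus strand), Krt18 at chr15:102027966-102028215 (plus strand) and Krt5 at chr15:101712906-101713155 (minus strand). Capitals mark the only match to any of 4 motifs searched on both strands.
Krt8: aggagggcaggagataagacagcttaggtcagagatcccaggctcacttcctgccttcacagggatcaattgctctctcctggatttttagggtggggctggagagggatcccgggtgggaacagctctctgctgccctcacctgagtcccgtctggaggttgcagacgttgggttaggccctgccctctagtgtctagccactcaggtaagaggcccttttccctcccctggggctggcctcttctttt
Krt18: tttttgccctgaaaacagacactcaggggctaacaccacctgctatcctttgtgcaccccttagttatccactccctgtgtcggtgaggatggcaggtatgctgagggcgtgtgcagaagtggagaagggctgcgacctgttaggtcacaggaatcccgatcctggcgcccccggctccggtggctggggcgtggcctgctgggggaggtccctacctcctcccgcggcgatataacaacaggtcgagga
Krt5: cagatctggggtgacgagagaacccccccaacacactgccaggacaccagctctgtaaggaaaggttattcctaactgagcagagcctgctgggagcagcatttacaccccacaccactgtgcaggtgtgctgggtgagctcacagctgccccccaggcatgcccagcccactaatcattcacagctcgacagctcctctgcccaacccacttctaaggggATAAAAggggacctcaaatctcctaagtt
Of 32851 windows of this length, 12.4% held the TATA box core TATAAA. Its variant ATAAAA, which can overlap it, was held by 17.0% of the windows. The GC box core GGGCGG was found in 32.7% of them. The AP-1 type motif TGANTCA was found in 6.75% of them. The window of Krt5 held ATAAAA with its first base 29 bases before the start, and neither Krt8 nor Krt18 held any of the 4 in these windows. Upstream windows were listed for 6 of the 10 members, and none for Krt15, Krt17, Krt19 or Krt4.

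Keratins took 0.946% of all UMIs in ORFTOC Epcam cells and 0.5997% in FTOC Epcam cells. In single cells the share ranged from 0.0324% at the 10th percentile through a median of 0.696% to 1.93% at the 90th percentile in ORFTOC, and from 0.0434% through 0.362% to 1.18% in FTOC. Krt18, Krt8, Krt5 and Krt17 together gave 93.6% of the keratin UMIs. Median depth was 12958 UMIs per ORFTOC Epcam cell and 11627 per FTOC Epcam cell. In 4390 immune cells (no Epcam or Pdgfra UMI, at least 1 Ptprc UMI, median depth 5013 UMIs) keratins were 0.00813% of the UMIs. Among the 2587 Epcam cells, 295 fell into 3 clusters led by immune genes (described below). The pools also differed in sex-linked genes: Eif2s3y, a Y-linked gene, had 806 UMIs in ORFTOC and 0 in FTOC Epcam cells, and Xist was at 172 and 450 UMIs per 1000000 (CPM). The part of this difference in the keratin levels was not tested.

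Krt18 and Krt8, the simple-epithelial pair, were the most abundant keratins in both pools. Krt18 was at 4033 CPM in ORFTOC and 2326 CPM in FTOC, a ratio of 1.73 (1.71 to 1.76). Its single-cell median was 2696 CPM in ORFTOC and 1415 CPM in FTOC. Krt8 was at 2315 and 1486 CPM, a ratio of 1.56 (1.53 to 1.58). Its single-cell median was 1413 CPM in ORFTOC and 863 CPM in FTOC. Both levels were higher in ORFTOC than in FTOC beyond counting error, and single cells of the pools overlapped widely: the 90th percentile of FTOC cells for Krt8 (2714 CPM) lay above the ORFTOC median. These counts are of transcript 5′ ends and were not divided by gene length.

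The basal pair was lower and less even across cells. Krt5 was at 1674 CPM in ORFTOC and 880 CPM in FTOC (ratio 1.90, 1.86 to 1.94), with single-cell medians of 390 and 0 CPM. Its 90th percentile reached 4842 CPM in ORFTOC and 2515 CPM in FTOC, and all of its FTOC UMIs came from 40.0% of the cells. Krt14 was at 404 and 148 CPM, a ratio of 2.73 (2.60 to 2.87). Krt15, a further type I keratin of basal cells, was at 74.1 and 47.1 CPM (ratio 1.57, 1.43 to 1.72). Krt17, a type I keratin of basal and appendage cells that is induced in injured skin, went the other way, with 796 CPM in ORFTOC and 964 CPM in FTOC (ratio 0.826, 0.807 to 0.845). Its log2 ratio of -0.28 was -0.06 with every cell given the same weight and 0.23 with cluster shares held equal between the pools.

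The remaining members were sparse. Krt7, a type II keratin of ductal and glandular epithelia, was at 70.9 and 65.7 CPM, and its ratio of 1.08 had an interval (0.992 to 1.17) that included 1. Krt19, the small type I keratin of simple and ductal epithelia, was at 64.4 and 41.0 CPM (ratio 1.57, 1.42 to 1.73). Krt10, the type I keratin of differentiating epidermis, was at 28.5 and 38.1 CPM (ratio 0.748, 0.663 to 0.843). A single FTOC cell held 50 of its 537 FTOC UMIs, whereas no ORFTOC cell held more than 4. Immune cells held 22.7 CPM of Krt10, so most of its level was not particular to Epcam cells. Krt4, the type II keratin of mucosal stratified epithelium, had 2 UMIs in 1449 ORFTOC cells and 9 UMIs in 1138 FTOC cells.

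**Figure D1:**
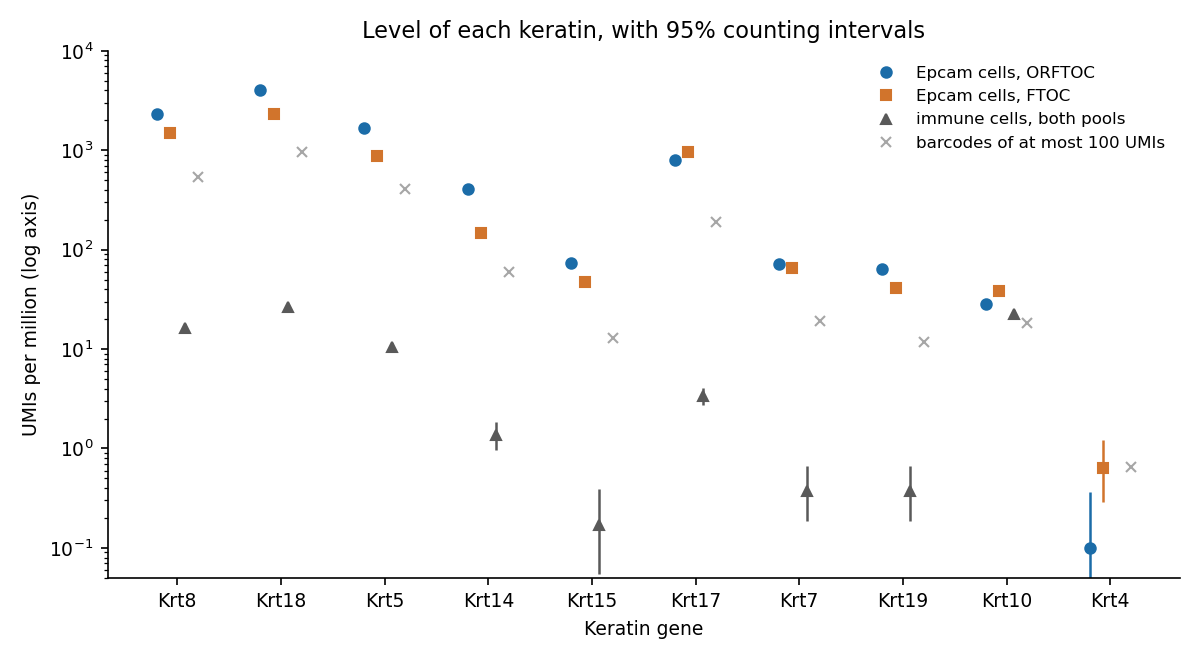
Level of each keratin in CPM on a log axis, for Epcam cells of ORFTOC and FTOC, immune cells of both pools and the pooled barcodes of at most 100 UMIs; bars are 95% counting intervals, and values of 0 are not drawn. For 9 of the 10 genes the immune cells lie far below the Epcam cells or at 0, and Krt10 is the exception at 22.7 CPM. Krt17, Krt10 and Krt4 have the FTOC level above the ORFTOC level, where Krt4 rests on 2 ORFTOC and 9 FTOC UMIs.

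Of the 10 members, 8 reached 50 CPM in the higher pool, and 1 of these (Krt14) was at least 2-fold higher in ORFTOC, beside 3.07% of the 3420 genes at that level. None of the 8 was at least 2-fold lower, beside 1.40% of those genes, and 4.47% of them were past 2-fold in either direction. In all, 7 of the 8 had a log2 ratio above 0, beside 1679 of the 3420 genes. The median of the 8 was 0.65, beside a median of -0.0043 over the 3420 genes. Krt10 and Krt4 did not reach the limit. Without the 3 immune clusters, 2 members (Krt14 and Krt5) were at least 2-fold higher in ORFTOC. The log2 ratios were then 0.73 for Krt8, 0.88 for Krt18, 1.02 for Krt5, 1.53 for Krt14 and -0.19 for Krt17.

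Droplets that hold no cell carry keratin RNA too, so detection in a cell was read against a cell type that should lack these genes. Pooled barcodes of at most 100 UMIs held 958 CPM of Krt18, 538 of Krt8, 411 of Krt5, 188 of Krt17 and 60.0 of Krt14. In immune cells the levels were 26.3 CPM for Krt18, 16.3 for Krt8, 10.4 for Krt5, 3.35 for Krt17 and 1.36 for Krt14. These immune cells were chosen to hold no Epcam UMI, so cells that had taken up Epcam RNA were left out and the levels may understate the background. The 3 immune clusters among the Epcam cells had keratin shares of 0.0286% to 0.0909% of UMIs, beside 0.00813% in these immune cells. After each cell had been thinned to 3000 UMIs, which kept 1386 ORFTOC and 1052 FTOC Epcam cells, Krt8 was found in 86.4% and 83.7% of Epcam cells and in 3.79% and 2.54% of immune cells of ORFTOC and FTOC. Krt5 was found in 57.3% (54.6 to 59.9) of ORFTOC and 30.5% (27.7 to 33.4) of FTOC Epcam cells, beside 2.32% and 2.19% of immune cells. Krt10 was found in 9.38% and 10.6% of Epcam cells and in 5.81% and 5.96% of immune cells. Without thinning, Krt5 was found in 65.6% and 40.0% of the Epcam cells.

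Krt8 was most often found with Krt5 in ORFTOC and without Krt5 in FTOC. Of the thinned cells with Krt5, 95.3% in ORFTOC and 91.9% in FTOC also held Krt8. Of the thinned ORFTOC cells, 54.6% (52.0 to 57.3) held both, 31.7% (29.3 to 34.3) Krt8 without Krt5, 2.67% Krt5 without Krt8 and 10.97% neither. Of the thinned FTOC cells, 28.0% (25.3 to 30.9) held both, 55.7% (52.6 to 58.7) Krt8 without Krt5, 2.47% Krt5 without Krt8 and 13.8% neither. Without the 3 immune clusters, both were found in 60.5% of the ORFTOC and 30.4% of the FTOC cells. Cells with Krt5 alone were rare in both pools: among cells with at least 4 Krt5 UMIs, Krt8 was at 0 in 3.56% of 505 cells of ORFTOC and 8.81% of 193 cells of FTOC. The reverse was common, since Krt5 was at 0 in 36.8% of 794 ORFTOC and 63.3% of 428 FTOC cells with at least 4 Krt8 UMIs.

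The sets of keratins found in a cell were many. Over the 10 members, 100 different sets were seen in ORFTOC and 93 in FTOC, and the median cell of each pool held 3 members. The commonest set in ORFTOC was Krt8 with Krt18 and Krt5 (13.9% of cells), followed by Krt8 with Krt18 (11.2%) and by these 2 with Krt5 and Krt17 (10.5%). In FTOC the commonest set was Krt8 with Krt18 (21.01%), followed by these 2 with Krt17 (12.2%), and Krt8 with Krt18 and Krt5 was at 4.85%. Exactly 5 members were found in 15.1% of ORFTOC and 9.70% of FTOC cells, 6 in 5.63% and 3.33%, and no cell held more than 7. No keratin UMI was left at this depth in 8.15% of the cells in ORFTOC and 5.13% in FTOC. These shares include the 3 immune clusters, whose part in them was not counted. Among the 1253 ORFTOC and 932 FTOC cells with at least 10 keratin UMIs at full depth, the keratin with the most UMIs was Krt18 in 66.4% and 61.4%. It was Krt5 in 19.0% and 11.6%, Krt8 in 7.02% and 15.9%, and Krt17 in 5.67% and 9.44%.

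Krt8 and Krt18 tracked each other from cell to cell. Across thinned cells their Spearman correlation was 0.78 in 1386 ORFTOC cells and 0.60 in 1052 FTOC cells, where the cells of a pool shared 1 library and culture mix. Both genes were at 0 in 128 of these ORFTOC and 69 of these FTOC cells. The cells of the 3 immune clusters were included here and in the correlations below, and their part in the values was not tested. Of ORFTOC cells with at least 4 Krt8 UMIs, 1.13% (0.520 to 2.14) had no Krt18, and of FTOC cells 4.21% (2.51 to 6.57). Krt8 was the lesser of the pair, with 0.574 UMIs per Krt18 UMI in ORFTOC (0.567 to 0.581) and 0.639 in FTOC (0.628 to 0.6501). Across cells with at least 10 UMIs of the pair, the Krt8 share ran from 20.6% at the 10th percentile to 52.9% at the 90th in ORFTOC, with a median of 35.5%. In FTOC it ran from 21.4% to 58.3%, with a median of 37.7%.

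Krt5 and Krt14 tracked each other less closely by these measures. Krt14 had far fewer UMIs than Krt5, so a count of 0 is more likely for Krt14 at this depth. How much of the contrast with Krt8 and Krt18 came from this was not tested. Their Spearman correlation was 0.37 in ORFTOC and 0.24 in FTOC cells. Krt14 was at 0 in 57.0% (52.6 to 61.4) of ORFTOC cells and 68.4% (61.3 to 74.9) of FTOC cells with at least 4 Krt5 UMIs, whereas Krt5 was at 0 in only 9.79% (5.46 to 15.9) of 143 ORFTOC cells and 19.4% (7.45 to 37.5) of 31 FTOC cells with at least 4 Krt14 UMIs. Summed UMIs gave 4.14 Krt5 per Krt14 in ORFTOC (4.04 to 4.25) and 5.95 in FTOC (5.68 to 6.23). Against Krt14, Krt17 and Krt15 together, Krt5 was at a ratio of 1.31 in ORFTOC and 0.759 in FTOC, so the sum of these type I keratins exceeded Krt5 in FTOC and not in ORFTOC. Of the Krt14-positive thinned cells, 74.5% in ORFTOC and 75.1% in FTOC also held Krt17. All type II members together were at 0.752 UMIs per type I UMI in ORFTOC and 0.682 in FTOC.

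**Figure D2:**
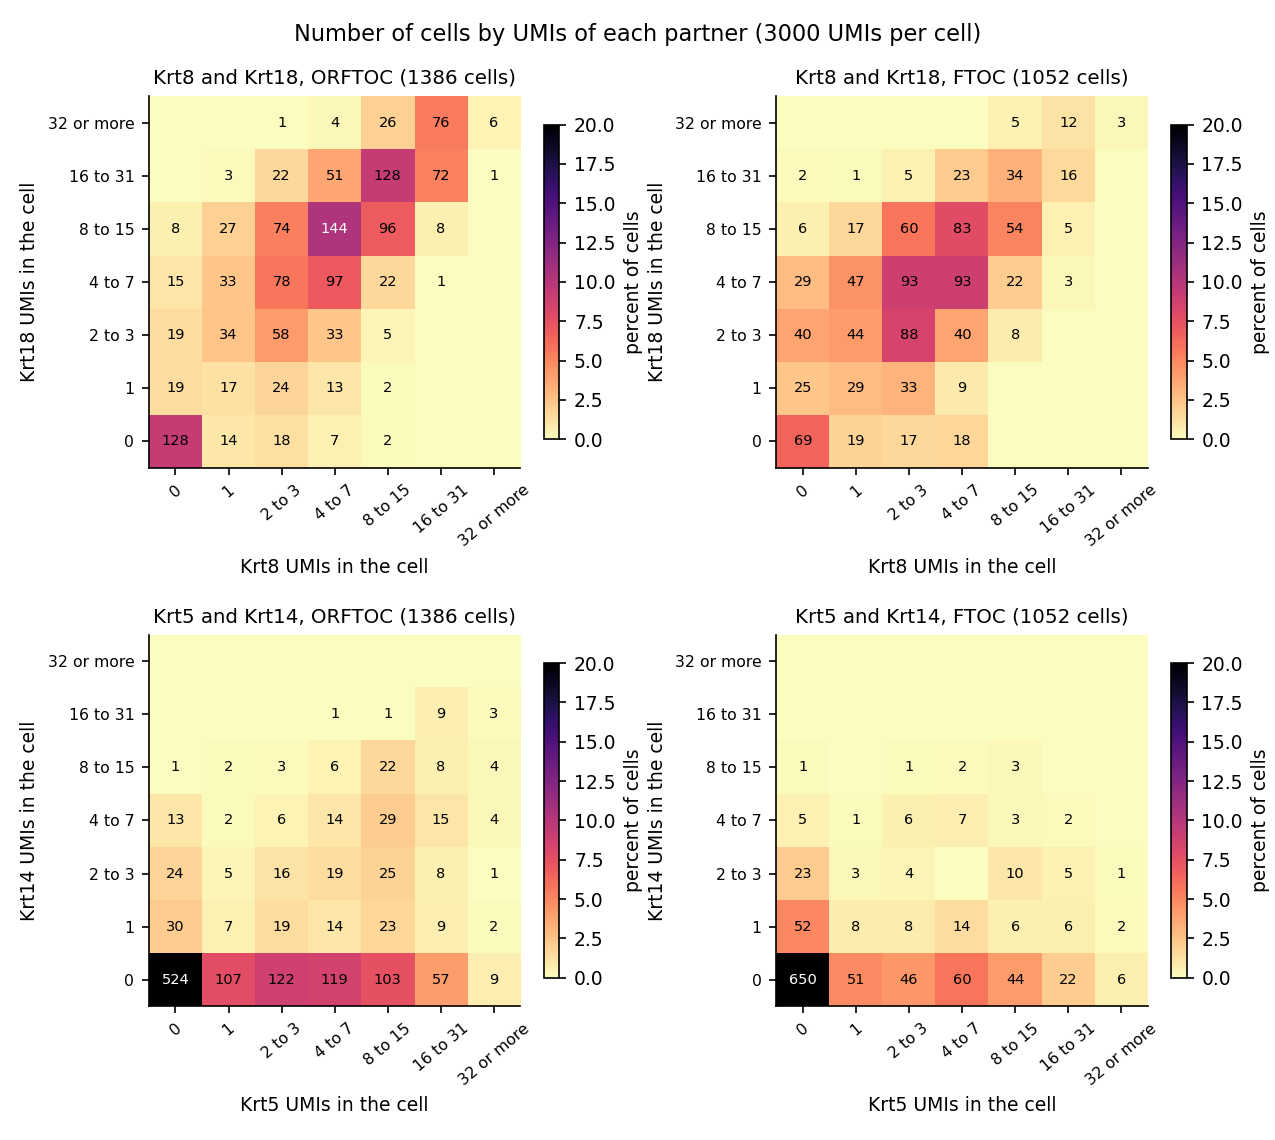
Number of Epcam cells by UMIs of Krt8 and Krt18 (top) and of Krt5 and Krt14 (bottom) in each pool, after thinning to 3000 UMIs per cell; the colour gives the percent of the pool's cells. The Krt8 and Krt18 counts rise together in both pools, with many cells in a higher class of Krt18 than of Krt8. Most cells with Krt5 in the lower panels lie along the row with no Krt14.

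The genes most like each keratin across cells were named for the 5 members found in at least 10% of thinned cells of both pools, from 3856 genes, by the mean Spearman correlation of the pools. Cells of the immune clusters were included. For Krt8 these were Krt18 (0.69), Cstb (0.42), Ctsl (0.38), Prss16 (0.31) and Cd74 (0.31). For Krt18 they were Krt8, Cstb, Ctsl, Tst and Cbr2. Krt5 was closest to Krt17 (0.36), then Krt14 (0.30), Sfn (0.29), Ccl21a (0.28) and Perp (0.27). Krt14 was closest to Krt17 (0.36), Rgs5 (0.31), Krt5, Mt2 and Ccl21a. Krt17 was closest to no keratin but to Ccl19 (0.44), Ccl21a (0.43), Cd74 (0.40), Rgs5 (0.39) and H2-Eb1 (0.38). Prss16 and Ctsl encode proteases of cortical TECs, and Ccl19 and Ccl21a are chemokines of the medulla.

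To place the keratins in cell types, the Epcam cells were clustered with every Krt gene left out. Of 11 clusters, 8 held under 100 CPM of Ptprc, the pan-leukocyte gene. These were cortical TEC-like cluster 5 (316 cells, led by Tbata, Psmb11 and Prss16), airway secretory-like cluster 2 (510 cells, led by Bpifa1, Hp and Serpinb11), Aire TEC-like cluster 8 (95 cells, led by Calcb, Psors1c2 and Wfdc21, with Aire among its top 10), ionocyte-like cluster 9 (40 cells, led by Foxi2, Foxi1 and Ascl3), tuft-like cluster 11 (28 cells, led by Gnat3, Gng13 and Gnb3) and 3 without a name. The unnamed ones were cluster 1 (604 cells, led by Rgs5, Aadac and Ccl19), cluster 3 (379 cells, led by Ndufa4l2, Igfbp2 and Ndrg1) and cluster 4 (320 cells, led by Lypd1 and Ms4a10). The other 3 were thymocyte-like cluster 7 (126 cells), macrophage-like cluster 10 (37 cells) and cluster 6 (132 cells, led by Xcl1, Cd7 and Nkg7), with 436, 221 and 443 CPM of Ptprc. Keratin shares there were 0.0286%, 0.0909% and 0.0451% of UMIs, against 0.357% to 1.68% in the other 8.

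Krt8 and Krt18 were present in nearly every cell of the 8 epithelial clusters. Krt8 was at 5871 CPM in the tuft-like and 4742 CPM in the cortical TEC-like cluster. This order depended on the clustering: at resolution 0.8 the tuft-like cluster grew from 28 to 106 cells and Krt8 was at 2476 CPM in it and 4721 CPM in the cortical TEC-like cluster, and with the Krt genes kept it was at 2632 CPM in 66 tuft-like cells and 4799 CPM in the cortical TEC-like cluster. In the clustering used here Krt8 followed at 2381 CPM in the Aire TEC-like and 2337 CPM in the airway secretory-like cluster, whose intervals overlapped. It was at 1407 CPM in cluster 1 and 1184 CPM in cluster 4, and lowest in the ionocyte-like cluster (966 CPM) and cluster 3 (909 CPM), whose intervals also overlapped. At full depth it was found in 92.5% to 100% of the cells of these clusters. Krt18 peaked in the cortical TEC-like cluster at 8820 CPM, followed by the tuft-like cluster at 6717 CPM. The ratio of Krt8 to Krt18 was 0.538 in the cortical TEC-like and 0.539 in the airway secretory-like cluster, and nearer to 1 in the tuft-like (0.874) and Aire TEC-like (0.920) clusters.

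Krt5 was spread over 6 of these clusters and nearly lacking in the other 2. It was at 1957 CPM in cluster 1, 1887 CPM in the cortical TEC-like cluster, 1543 CPM in the Aire TEC-like cluster, 1541 CPM in cluster 3, 936 CPM in the airway secretory-like cluster and 813 CPM in cluster 4. It was at 93.5 CPM in the ionocyte-like and 9.19 CPM in the tuft-like cluster. Medians over single cells were far lower than these pooled levels in cluster 3 (0 CPM) and in the Aire TEC-like cluster (70.0 CPM). Krt14 had another order, with 588 CPM in cluster 3, 571 in cluster 1, 320 in cluster 4 and 244 in the Aire TEC-like cluster, but 93.0 CPM in the cortical TEC-like and 38.4 CPM in the airway secretory-like cluster, where 1 cell gave 48.9% of its UMIs. No Krt14 UMI was found in the 40 ionocyte-like or 28 tuft-like cells. Krt5 per Krt14 was thus 2.54 in cluster 4 and 2.62 in cluster 3 but 20.3 in the cortical TEC-like and 24.4 in the airway secretory-like cluster. Krt15 followed Krt14, with 145 CPM in cluster 3, 104 in cluster 4, 102 in cluster 1 and under 20 in the other 5 epithelial clusters.

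Krt17 was highest in the Aire TEC-like cluster, at 2570 CPM and in 87.4% of its cells. It was at 1335 CPM in cluster 1, 1220 CPM in the cortical TEC-like cluster and 653 CPM in cluster 4. The sum of Krt14, Krt17 and Krt15 exceeded Krt5 in the Aire TEC-like cluster, where the ratio of Krt5 to this sum was 0.545 and 1 cell gave 26.8% of the Krt5 UMIs. The ratio was also below 1 in cluster 1 (0.974), cluster 4 (0.755) and the tuft-like cluster (0.167, with 4 Krt5 UMIs). It was above 1 in the cortical TEC-like cluster (1.43), cluster 3 (1.37), the airway secretory-like cluster (2.18) and the ionocyte-like cluster (18.7, with 3 UMIs in the sum).

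Krt19 and Krt7 had their highest levels in different small clusters. By number of UMIs, both were most frequent in the larger airway secretory-like cluster, with 933 of 1855 Krt19 UMIs and 1088 of 2332 Krt7 UMIs. Krt19 was at 1818 CPM in the tuft-like cluster, in 71.4% of its 28 cells, and at 154 CPM in the airway secretory-like cluster, and at most 21.7 CPM in each of the others. In the larger tuft-like clusters found at resolution 0.8 and with the Krt genes kept, Krt19 was at 594 and 629 CPM. Krt7 was at 551 CPM in the ionocyte-like cluster, in 97.5% of its 40 cells, and at 179 CPM in the airway secretory-like cluster, and at most 75.2 CPM elsewhere. Krt10 varied from 17.8 to 51.0 CPM over the 8 clusters, and Krt4 stayed at or under 1.09 CPM. In the ionocyte-like cluster, Krt7 came second to Krt8 among the type II members.

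**Figure D3:**
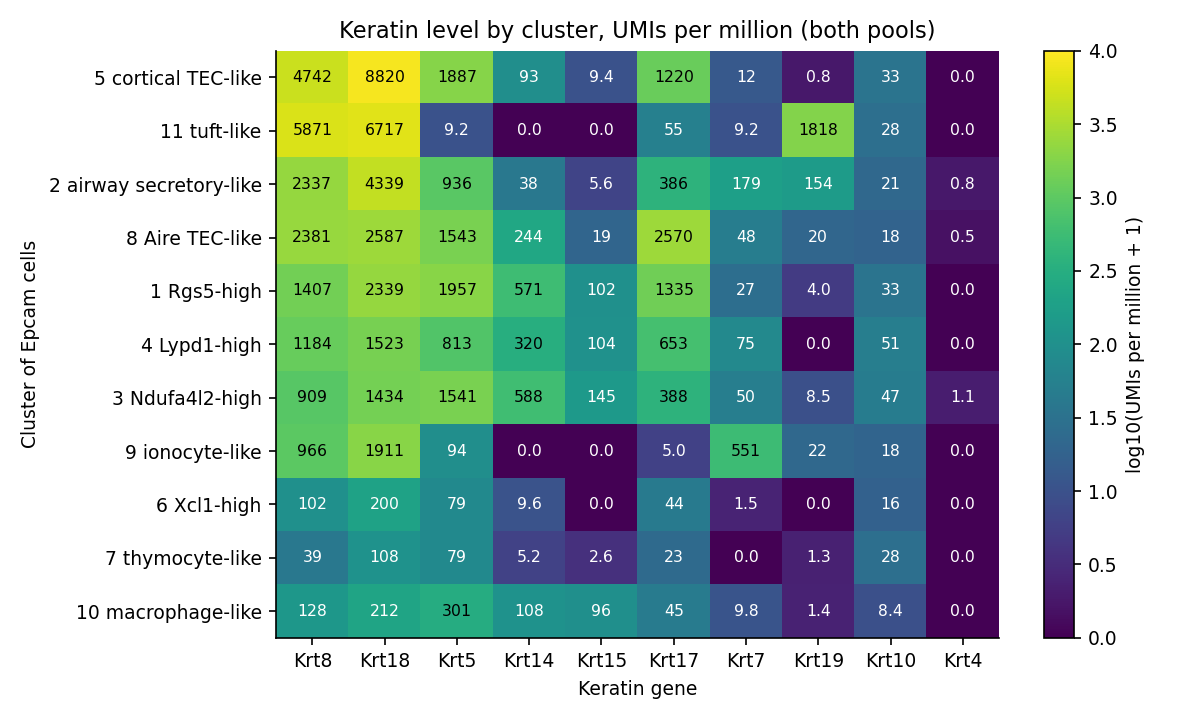
CPM of each keratin in each cluster of Epcam cells, both pools together, with the colour on the scale log10(value + 1); clusters without a name carry their first leading gene. Krt8 and Krt18 are bright in the upper 8 rows, Krt19 stands out in the tuft-like row at 1818 and Krt7 in the ionocyte-like row at 551, and the 3 immune rows at the bottom are low for Krt8, Krt18 and Krt17.

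Clusters differed in how much each pool gave. ORFTOC gave 88.0% (83.9 to 91.3) of the cortical TEC-like cells and 74.1% (70.1 to 77.9) of the airway secretory-like cells, but 21.9% (17.8 to 26.4) of cluster 3. In clusters 1 to 5 and 8 the pools had close levels of the simple-epithelial pair. The log2 ratio of ORFTOC over FTOC ran from -0.04 to 0.30 for Krt8 and from -0.11 to 0.32 for Krt18, beside 0.64 and 0.79 over all Epcam cells. In the ionocyte-like cluster (25 ORFTOC and 15 FTOC cells) the ratio was 1.64 (1.35 to 2.01) for Krt8 and 1.74 (1.51 to 2.01) for Krt18, and in the tuft-like cluster (22 and 6 cells) 1.17 (1.05 to 1.30) and 1.66 (1.48 to 1.87). In the cortical TEC-like cluster Krt8 was at 4727 CPM in 278 ORFTOC cells and 4851 CPM in 38 FTOC cells, whose ratio of 0.974 had an interval (0.938 to 1.01) that included 1. With every cluster given the same weight in both pools, the log2 ratios were 0.16 for Krt8 and 0.11 for Krt18.

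Krt5 and Krt14 differed between the pools within most of these clusters. In cluster 3, Krt5 was at 4737 CPM in 83 ORFTOC cells and 499 CPM in 296 FTOC cells, a ratio of 9.49 (8.99 to 10.03). Krt14 there was at 2048 and 112 CPM (ratio 18.4, 16.5 to 20.5), and Krt15 at 455 and 44.1 CPM (ratio 10.3, 8.60 to 12.4). On the FTOC side of this cluster, 1 cell gave 47.1% of the 153 Krt15 UMIs and 5.07% of the cells had any. For Krt5, 1 FTOC cell gave 25.4% of the UMIs there. Over the other 5 clusterings tried, the log2 ratio in the matching cluster ran from 1.63 to 3.89 for Krt5, beside 3.25 here, and from 2.46 to 4.88 for Krt14, beside 4.20 here. The cells grouped in this cluster by genes other than keratins thus carried high basal keratins in one pool and low ones in the other. In the cortical TEC-like cluster, Krt5 was at 2062 CPM in ORFTOC and 678 CPM in FTOC (ratio 3.04, 2.76 to 3.36). Its log2 ratio of 1.60 ran from 0.93 to 2.29 over the other clusterings. In cluster 4 it was at 1254 and 413 CPM, and in cluster 1 at 2491 and 1432 CPM. In the airway secretory-like cluster Krt5 was at 930 and 954 CPM, with an interval of the ratio (0.917 to 1.04) that included 1. Krt14 was at 47.9 and 8.27 CPM there, but 1 cell gave 51.6% of its 221 ORFTOC UMIs, and FTOC had 12 UMIs. Cells and RNA of 2 mixed cultures stood behind each value, and the cell makeup of a cluster cannot be told apart here from the level per cell.

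Krt17 and Krt7 went in opposite ways in different clusters. Krt17 was higher in ORFTOC in cluster 3 (1022 against 182 CPM) and cluster 4 (843 against 481 CPM), and lower in cluster 1 (1066 against 1600 CPM) and the cortical TEC-like cluster (1148 against 1713 CPM). Krt7 was higher in ORFTOC in the Aire TEC-like cluster (96.1 against 22.1 CPM) and cluster 1 (37.96 against 15.3 CPM), and lower in cluster 4 (55.4 against 93.2 CPM) and the airway secretory-like cluster (154 against 259 CPM). In the Aire TEC-like cluster, 1 cell gave 35.8% of the 67 ORFTOC UMIs of Krt7. Krt19 in the airway secretory-like cluster was lower in ORFTOC (132 against 222 CPM), opposite to its ratio over all Epcam cells, and in the tuft-like cluster it was at 1785 and 1970 CPM, where the FTOC value came from 6 cells.

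**Figure D4:**
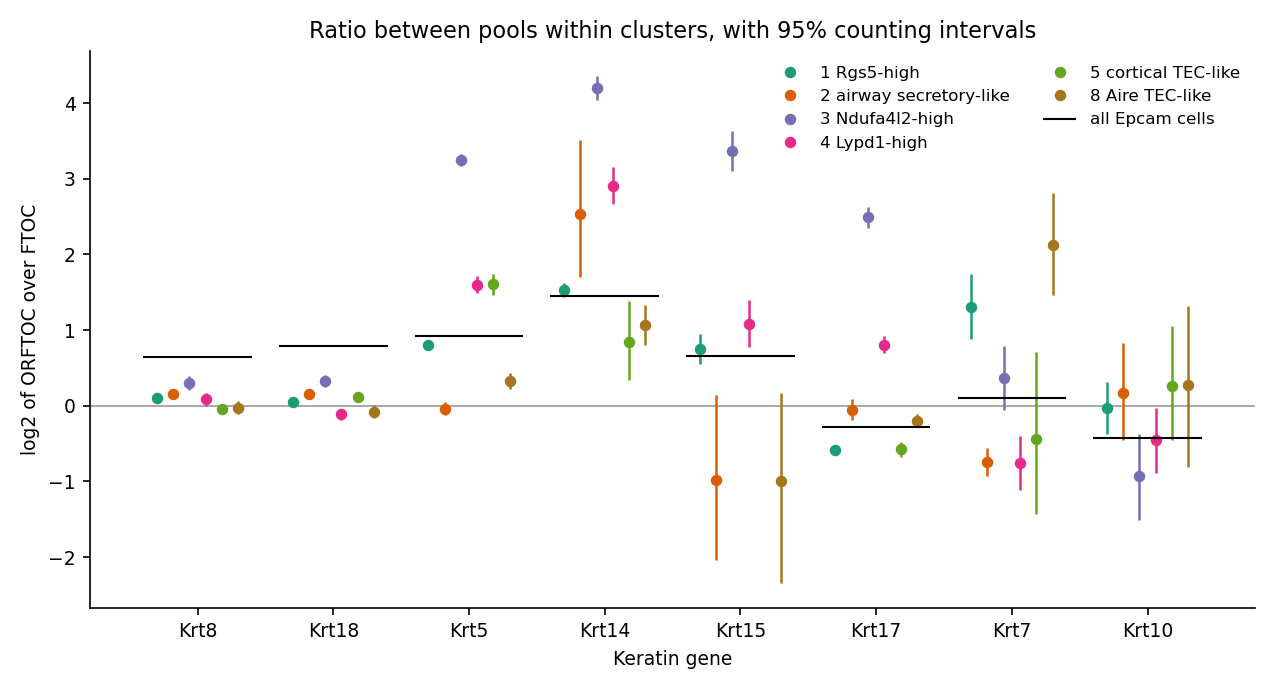
The log2 ratio of ORFTOC over FTOC for 8 keratins in the 6 largest epithelial clusters (points, with 95% counting intervals; points with under 3 UMIs in a pool are left out), and over all Epcam cells (black lines). The points of Krt8 and Krt18 lie between -0.11 and 0.32, below their black lines, whereas Krt5, Krt14 and Krt15 reach 3.25, 4.20 and 3.37 in cluster 3.

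The share of cells with both Krt5 and Krt8 was higher in ORFTOC in each of the 6 largest epithelial clusters. It was 71.3% (65.7 to 76.5) against 44.2% (38.5 to 50.1) in cluster 1, 69.1% (57.9 to 78.9) against 21.1% (16.5 to 26.3) in cluster 3, and 57.4% (49.0 to 65.5) against 19.5% (13.8 to 26.3) in cluster 4. In the cortical TEC-like cluster it was 68.2% (62.4 to 73.7) of 277 ORFTOC cells against 26.3% (13.4 to 43.1) of 38 FTOC cells. In the airway secretory-like cluster it was 52.8% against 32.8%, where the interval of the ratio of summed Krt5 included 1, and in the Aire TEC-like cluster 52.6% (35.8 to 69.0) against 33.9% (21.8 to 47.8), whose intervals overlapped. Tuft-like cells had Krt8 without Krt5 in 21 of 22 ORFTOC cells.

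**Figure D5:**
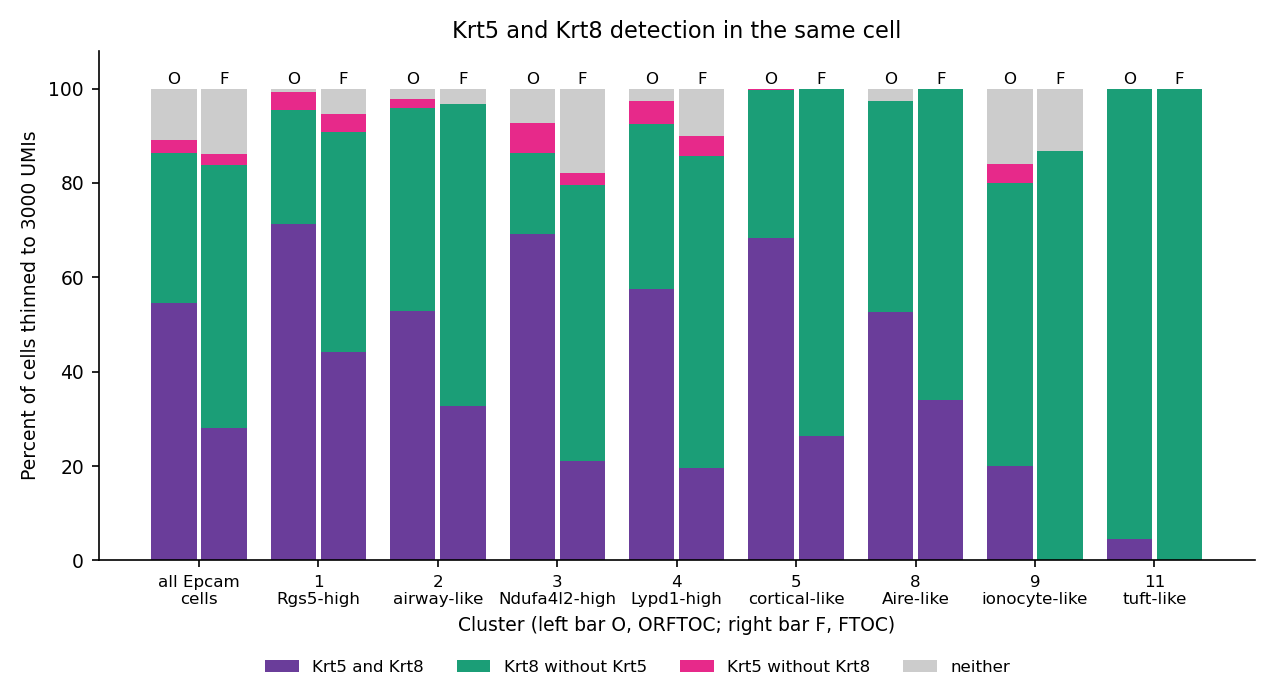
Percent of thinned Epcam cells with both Krt5 and Krt8, only 1 of them or neither, for each pool (O, ORFTOC; F, FTOC), over all Epcam cells and in each of the 8 epithelial clusters. The part with both keratins is taller in the ORFTOC bar in clusters 1, 2, 3, 4, 5 and 8, and nearly absent in the tuft-like cluster.

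The other 43 Krt genes added little. Of these, 38 had a UMI in Epcam cells and 3 reached 10 CPM in either pool. Krt6a, a type II keratin of appendages and injured epidermis, was at 42.4 CPM in ORFTOC and 12.8 CPM in FTOC (ratio 3.30, 2.81 to 3.90), in 10.6% and 2.46% of cells at full depth. In ORFTOC 62.4% of its UMIs were in the airway secretory-like cluster, and in FTOC 5 cells gave 74.6% of them. Its neighbour Krt6b is nearly identical in sequence, so the split of their reads is uncertain. Krt14, Krt16, Krt17 and Krt42 are also related in sequence, and whether reads were shared among them was not tested. Krt23 was at 17.0 and 13.7 CPM, with 90.8% and 72.5% of its UMIs in the airway secretory-like cluster. Krt13, a type I keratin of mucosal epithelium, had 4 UMIs in ORFTOC and 325 in FTOC, of which 1 cell of FTOC gave 315.

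The genes that anchor keratin filaments were read as a further list. Of 27 genes chosen as a list of desmosome, hemidesmosome, basement membrane, vimentin and regulator genes, 17 reached 50 CPM, none was past 2-fold, beside 4.47% of the 3420 genes at that level, and 11 had a log2 ratio above 0, beside 1679 of the 3420 genes. Their median was 0.16, beside -0.0043 over the 3420 genes. The desmosome plakin Dsp, which ties keratins to cell junctions, was at 330 and 296 CPM (log2 0.16), and its partner Jup at 162 and 151 CPM (log2 0.09). The hemidesmosome integrin genes Itga6 and Itgb4 had log2 ratios of -0.25 and 0.17. High ratios among the 17 included those of the transcription factor gene Klf5 (61.7 and 37.8 CPM, log2 0.71), the mesenchymal filament gene Vim (196 and 128 CPM, log2 0.61) and the plakin gene Dst (log2 0.58). Trp63, which encodes the basal cell factor p63, was lower in ORFTOC, at 123 against 185 CPM (log2 -0.59, ratio 0.667, 0.631 to 0.705). The cornified plakin genes Evpl and Ppl were 2.35 and 2.32 times as high in ORFTOC but under 50 CPM in both pools.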

How the data were processed

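One lane of 5′ droplet single-cell RNA sequencing was analysed. The authors aligned the reads with Cell Ranger to mm10 (version 6.1.2 in their methods; the matrix header names version 4), and the deposited matrix holds unfiltered UMI counts per gene and barcode and hashtag counts, with HTO_1 for FTOC and HTO_2 for ORFTOC. The deposited hashtag table gave names only. T cell receptor files were not used. Whether the Cell Ranger version changes the counts was not tested.

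Cells with at least 600 genes and 0.4 to 10% mitochondrial UMIs were kept, as in the study. HTODemux (Seurat 5.3.0, quantile 0.99) assigned the pools. The 590 doublets between pools and 591 within pools (share of known doublets among 50 neighbours) were removed. Clustering used SCTransform 0.4.2 after regressing out cell cycle scores, 18 principal components and resolution 0.4, without Krt genes. A cluster was named where at least 3 markers of a class were detected in 10% of its cells and more of its top 10 genes were markers of that class than of any other. These limits were set after the leading genes had been seen.

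Summed UMIs of each pool were expressed as CPM with Poisson and Clopper-Pearson intervals (95%) and counts under 3 set to 3 in ratios. For detection, cells were thinned to 3000 UMIs, leaving out 63 ORFTOC and 86 FTOC cells. Each pool was 1 sample, so no test was made. UMIs are counted after removal of PCR copies, but intervals still cover counting error only. Depth was 19816555 UMIs in ORFTOC and 14106590 in FTOC Epcam cells. The named genes were the members, other Krt genes of at least 10 CPM, the anchoring list, the 5 genes most like a member, and leading genes of clusters; values of the sex-linked genes are given as a check of the pools. Some genes covered by this rule are not reported here. Members and lists were chosen with earlier results of these data known. The ratio step was tested on simulated counts, and the thinning step on real FTOC cells. Python 3.11.15, numpy 2.4.6, scipy 1.17.1 and R 4.3.3 were used. Gates, hashtag rule, doublets, free RNA, weights, depth and clustering were varied.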

Additional observations from a re-analysis of the deposited data

Results flagged for a closer look

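The ratio of Krt17 between pools went opposite ways in different clusters, with a log2 of 2.49 for ORFTOC over FTOC in cluster 3 and -0.59 in cluster 1. That of Krt7 had a log2 of 2.12 in the Aire TEC-like cluster and -0.75 in cluster 4. Both were picked out because each side was at least 1.5-fold with a counting interval that left out 1. The Krt7 value in the Aire TEC-like cluster rested on 67 ORFTOC UMIs, of which 1 cell gave 35.8%, and on 28 FTOC UMIs. With 1 sample per pool the difference between clusters was not tested.

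Krt13, which is not among the 10 members, had 325 UMIs in FTOC Epcam cells, above the limit of 3 that a count of 0 allows. A single cell held 315 of them, 9 cells had any, and cluster 3 held 99.1% of the UMIs.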

How the results depend on the processing

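Each pool was 1 sample, so no replicate could be left out. No paired analysis was possible because each pool was 1 sample and no test was made. The count of members past 2-fold was 1 and became 2, with Krt5 joining Krt14, with at least 2 Epcam UMIs, with more Epcam than Ptprc and Pdgfra UMIs, with every cell given the same weight, and without the 3 immune clusters (added after seeing the data). At a fold of 1.5 it was 6 members, 4 anchoring genes and 10.03% of all genes, and with genes of at least 10 CPM it was 2 anchoring genes and 5.48% of all genes. The share of ORFTOC cells with Krt5 and Krt8 was 58.5% with at least 2 Epcam UMIs, 59.1% with more Epcam than Ptprc and Pdgfra UMIs and 60.5% without the immune clusters. In ORFTOC and FTOC the share was 32.5% and 14.6% at 1000 UMIs, 64.6% and 39.0% without thinning, and 41.1% and 19.0% when 2 UMIs were needed, so it depends on depth while ORFTOC stayed above FTOC under each of these. The ratio of type II to type I members in FTOC was 0.673 with at least 2 Epcam UMIs. The log2 of Krt8 in the cortical TEC-like over the Aqp3-high cluster (cluster 3, 2.38) was 2.24 with log-normalised counts, 2.13 at resolution 0.8 and 1.97 at resolution 0.2. With cluster shares held equal, the log2 ratios of Krt19 (-1.87) and Krt17 (0.23) changed sign; for Krt19 this mean includes clusters where 1 pool was at the limit of 3 UMIs. Over all 9 alternatives Krt5 stayed between 0.91 and 1.11 and Krt14 between 1.41 and 2.02. The ratio of Krt5 between pools in the Aqp3-high cluster ranged from a log2 of 1.63 at resolution 0.2, where that cluster grew to 1311 cells, to 3.89. Depth limits Krt4, Krt10 and the FTOC side of small clusters.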
